A study of Homo sapiens with 15 samples.

Results

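The genes described here are 49 genes of homologous recombination, the Fanconi anemia pathway, the DNA damage checkpoint, PARP signalling and end joining. They were listed by symbol, matched to the Ensembl identifiers of the expression table, and kept where at least 3 of the 15 libraries reached 1 TPM (a length-corrected share of all transcripts in the library). All 49 of 49 listed genes passed, among 14899 of the 60664 genes in the table that did.

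The study asked how the transcriptome of colorectal cancer cells responds to hydroxytyrosol (HTyr), a phenol of the olive, and to extracts of oil production waste products (OPWPs). HCT116, a human colorectal carcinoma cell line that lacks mismatch repair and is labelled WT, was left untreated or was given 0.0154 mg/mL of HTyr, of the Apulia extract (AE), of the Tuscany extract (TE) or of the Sicily extract (SE) for 72 h. Each of these 5 groups has 3 libraries of poly(A) RNA, labelled as biological replicates of 1 cell line. The study describes its data in general as from independent experiments, how separate the cultures of these libraries were is not stated, and each p-value here reflects only how these libraries vary. An extract is a mixture, and the labels give its weight per volume, not the amount of any single compound in it. The names TE and SE follow the sample descriptions and the study's own column names. Letter codes in the titles of the Tuscany and Sicily samples are crossed, and if those codes were right, the values given for TE and SE would change places.

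Homologous recombination repairs broken DNA by copying the sister chromatid. The MRE11-RAD50-NBN complex and RBBP8 trim the ends, BRCA1, PALB2 and BRCA2 prepare the single strand for strand exchange, and RAD54 proteins, helicases and nucleases complete and resolve the exchange. The Fanconi anemia pathway uses the same machinery to remove crosslinks between strands, and ATM, ATR, CHEK1 and CHEK2 halt the cell cycle meanwhile. Many of these genes are known as targets of E2F or NF-Y factors with most of their transcription in S and G2 phase, while PARP1 and the end joining factors act throughout the cycle.

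Printed here, as a description, are 4 promoters that hold a match to an E2F-like, CCAAT or CHR-like motif. Among members with such a promoter at hand, the 4 printed had the largest rise in the mean of the 4 treatments. Each printed window is the 250 bases upstream of the start of transcription as RefSeq gives it on GRCh38.p14. It is read on the gene's strand, in lower case with the motif matches in capitals. These are CCAAT, which reads ATTGG on the other strand, the E2F-like GCGGGAA and the CHR-like TTCAAA. Gene spans given below come from GENCODE. By those spans the CHEK1 window lies inside the gene, and the XRCC3, RAD51AP1 and BRIP1 windows run partly into theirs.
XRCC3 (chr14:103715452-103715701, minus strand): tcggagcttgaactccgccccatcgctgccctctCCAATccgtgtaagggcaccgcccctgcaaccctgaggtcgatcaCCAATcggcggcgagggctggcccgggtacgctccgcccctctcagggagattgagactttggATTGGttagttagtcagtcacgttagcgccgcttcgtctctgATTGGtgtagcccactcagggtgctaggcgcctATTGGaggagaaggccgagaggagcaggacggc
RAD51AP1 (chr12:4538640-4538889, plus strand): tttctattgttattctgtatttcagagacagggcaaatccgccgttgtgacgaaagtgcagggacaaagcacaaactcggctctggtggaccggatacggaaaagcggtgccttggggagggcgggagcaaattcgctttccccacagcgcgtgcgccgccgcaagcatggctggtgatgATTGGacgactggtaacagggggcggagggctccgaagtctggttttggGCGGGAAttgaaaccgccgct
CHEK1 (chr11:125625979-125626228, plus strand): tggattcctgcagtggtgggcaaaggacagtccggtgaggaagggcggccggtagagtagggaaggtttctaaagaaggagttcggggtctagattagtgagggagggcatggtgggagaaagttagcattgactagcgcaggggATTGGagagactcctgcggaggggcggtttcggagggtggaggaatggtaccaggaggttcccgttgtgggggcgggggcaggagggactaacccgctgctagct
BRIP1 (chr17:61863529-61863778, minus strand): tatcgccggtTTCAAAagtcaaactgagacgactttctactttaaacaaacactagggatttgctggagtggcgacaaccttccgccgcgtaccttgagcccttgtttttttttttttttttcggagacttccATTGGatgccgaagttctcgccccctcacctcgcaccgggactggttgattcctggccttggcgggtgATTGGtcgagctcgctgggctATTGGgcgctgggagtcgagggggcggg
XRCC3 held 5 CCAAT matches and BRIP1 held 3 with 1 CHR-like match. RAD51AP1 held 1 CCAAT and 1 E2F-like match, and CHEK1 held 1 CCAAT match. RefSeq promoters were at hand for 42 of the 49 members, and not for RMI2, FANCI, RAD54B, WRN, NBN, PRKDC and XRCC5. RMI2, whose mean rise was the largest of all members, was therefore not searched. The E2F-like letters searched on either strand were TTGGCGC as the first form, TTCGCGC as the second and TTCCCGC as the last. At least 1 of these forms stood in 28.57% of these 42 windows and in 9.51% of 27305 promoters of the same length. These 27305 are all promoters at hand, 1 per gene symbol, neither limited to expressed genes nor matched for GC content. CCAAT on either strand stood in 47.62% of member windows and in 33.04% of all, and the CHR-like letters, TTTGAA in one form and TTCGAA in the other, in 11.9% and 14.59%. Among the 22 members with a promoter that rose in the mean of the 4 treatments, 31.82% held an E2F-like and 54.55% a CCAAT match. Among the 20 that did not, these shares were 25.0% and 40.0%. A match of letters is a description and not a binding site.

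TPM add up to the same total in every library, which removes the depth of each library, and the reads behind a value are unknown. Between 13653 and 14034 genes reached 1 TPM per library. EPCAM, which marks epithelial cells, lay between 269.79 and 345.61 TPM and the intestinal factor CDX2 between 3.04 and 6.58 TPM, while VIL1 and CDX1 stayed at or under 0.23 TPM. The summed TPM of the 8 epithelial markers was 4196.36 to 4242.63 in untreated and 2307.07 to 3144.12 in treated libraries, and the part of this shift in the members' changes was not tested. All 5 leukocyte markers stayed at or under 0.42 TPM. Of the 5 fibroblast and endothelial markers, COL1A1 reached 8.53 TPM and the others stayed at or under 0.25 TPM.

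Compared with untreated cells, more members rose than fell after each treatment, and the highest number rose after SE. The difference was above 0, called or not, in 45 of the 49 members with SE, 45 with AE, 41 with TE and 37 with HTyr. A gene was called changed at an adjusted p under 0.05 (limma on log2(TPM + 0.5), Benjamini-Hochberg over all 14899 genes) and a fold change over 1.5, which is 0.585 on the log2 scale. With SE, 31 of the 49 members rose and 0 fell, where 17.0% of all genes tested rose and 11.0% fell. With AE, 25 rose and 0 fell, against 10.7% and 5.81% of all genes. With HTyr, 17 rose and 2 fell, against 7.80% and 8.45%. TE changed the fewest, with 14 higher and 0 lower, against 7.46% and 5.26%. At an unadjusted p under 0.05 with no fold threshold, 0 members were lower with AE, 2 with TE and 2 with SE. This count is not given for HTyr, where WRN and ATM were called lower and MRE11 was lower at an adjusted p under 0.05. In the mean of the 4 treatments 25 rose and 0 fell, against 10.4% and 7.43% of all genes, and 2 members were lower at an unadjusted p under 0.05. In bulk RNA, a shift in the share of cells in each phase of the cycle and a change of RNA per cell cannot be told apart.

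The median log2 fold change of the members was 0.97 with SE, 0.63 with AE, 0.36 with HTyr and 0.32 with TE. Over all genes tested the medians were 0.09, 0.09, -0.04 and 0.05. SE gave the highest of the 4 fold changes in 41 members, while TE gave the lowest in 24 and HTyr in another 24. The shares of all genes for these counts, and for the counts above 0, are not given. With all 4 treatments 12 members were called higher, namely BRCA1, BRIP1, RAD51AP1, XRCC2, XRCC3, FANCA, FANCI, FANCL, UBE2T, RMI1, RMI2 and CHEK1. Leaving out 1 library could undo the HTyr call of BRCA1 (0.51), BRIP1 (0.57) and XRCC2 (0.54 to 0.56). The same held for the TE call of FANCA (0.56 to 0.58). The share of all genes called with all 4 treatments is not given. Another 7 were called with 3 treatments (BRCA2, BARD1, RAD51C, FANCD2, FANCG, BLM and EME1), 5 with 2 (PALB2, RAD54L, RAD54B, FANCB and XRCC6) and 8 with 1. Of these 8, MDC1 was called with AE, and FANCM, ATRIP, CHEK2, TOPBP1, PARP1, XRCC5 and PRKDC with SE. All 12 treated libraries lay above all 3 untreated libraries in 22 members and below them in 1 (ATM), where 15.3% and 11.8% of all genes tested did so. The groups share the 3 untreated libraries, so the 4 comparisons are not independent.

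Genes of cell division and replication were higher in the same libraries. The 10 proliferation markers (MKI67, TOP2A, CCNA2, CCNB1, CDK1, PLK1, AURKA, BUB1, PCNA and TYMS) all rose with AE, SE and HTyr and 8 of them with TE. Their median log2 fold changes were 1.11 (AE), 1.63 (SE), 1.10 (HTyr) and 0.74 (TE). Their summed TPM was 366.26 to 420.42 in untreated libraries, 852.26 to 929.03 with AE, 703.66 to 715.64 with TE, 1388.81 to 1469.04 with SE and 874.21 to 935.48 with HTyr. Of 26 genes of the replication machinery, 26 rose with AE and 26 with SE, 22 with TE and 21 with HTyr. The part of cell cycle phase in the members' changes was not tested. The members together summed to 1242.68 to 1318.72 TPM in untreated cells and 2473.12 to 2563.94 TPM with SE.

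**Figure D1:**
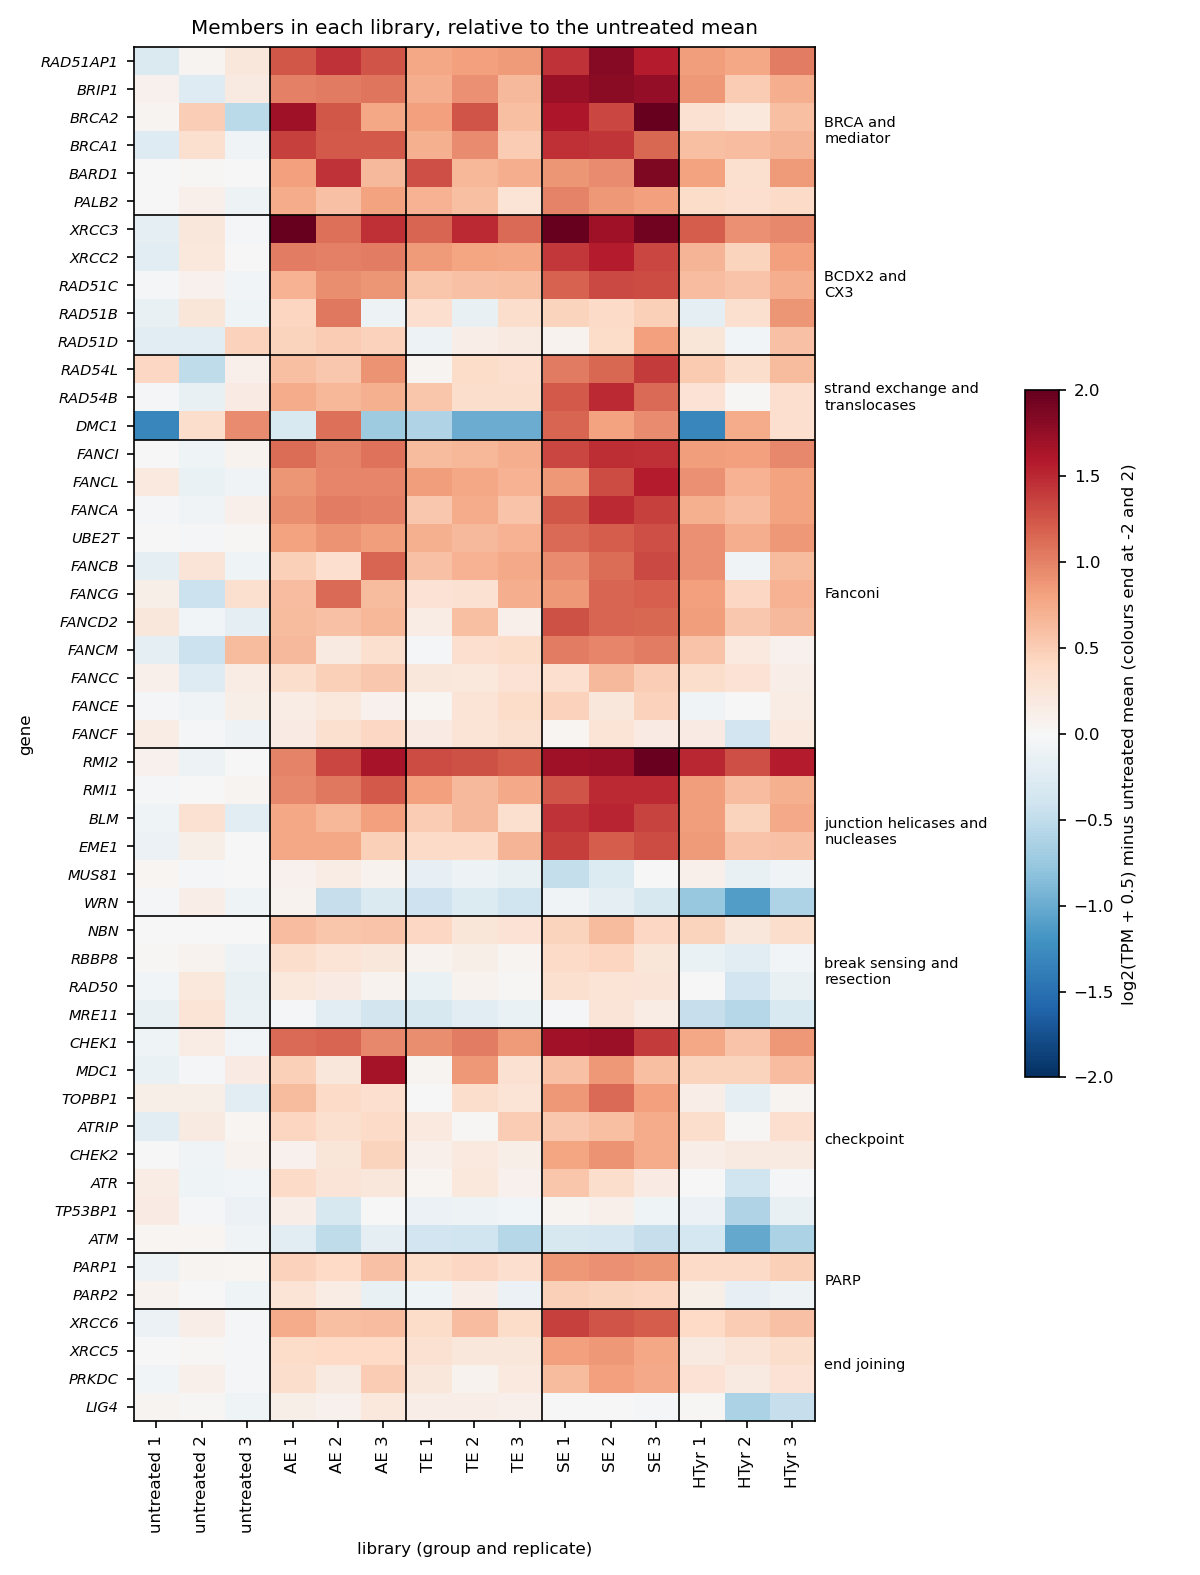
Each row is a member and each column a library, coloured by log2(TPM + 0.5) minus the mean of the 3 untreated libraries (red higher, blue lower), with rows grouped by role and groups of libraries divided by lines. The SE columns are the darkest red in most rows, whereas ATM is pale to dark blue in every treated library and WRN is darkest blue with HTyr.

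Among BRCA1, BRCA2 and the other mediators of recombination, all 6 members rose with AE and with SE, 5 rose with TE and 3 with HTyr. BRCA1 (ENSG00000012048, chr17:43044295-43170245), a ubiquitin ligase that steers breaks toward recombination, stood at 8.47, 12.84 and 9.71 TPM in untreated cells. It measured 27.13, 24.54 and 24.42 TPM with AE, 17.08, 20.01 and 14.64 with TE, 28.92, 28.37 and 23.25 with SE, and 15.69, 15.94 and 16.64 with HTyr. All 12 treated libraries lay above the untreated ones, and the AE and SE libraries overlapped each other above those of TE and HTyr. The log2 fold changes were 1.27 with AE (adjusted p = 9.62e-06), 0.72 with TE (adjusted p = 0.00133), 1.35 with SE (adjusted p = 2.34e-06) and 0.63 with HTyr (adjusted p = 0.00271), each with a standard error of 0.14 (n = 3 per group), and ± after a log2 value gives its standard error from here on.

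BRCA2 (ENSG00000139618, chr13:32315086-32400268), a mediator that acts on single-stranded DNA, was one of the least abundant members, with 2.1, 3.03 and 1.22 TPM in untreated cells. With AE it measured 7.6, 5.44 and 3.81 TPM, with TE 3.93, 5.52 and 3.29, with SE 7.21, 5.82 and 9.79, and with HTyr 2.6, 2.39 and 3.3. The 9 extract libraries all lay above the untreated ones, while HTyr overlapped them. BRCA2 rose with SE by 1.66 ± 0.29 (log2, adjusted p = 0.000253), with AE by 1.24 ± 0.29 (adjusted p = 0.00372) and with TE by 0.89 ± 0.29 (adjusted p = 0.0276), and with HTyr the difference was 0.37 ± 0.29 (adjusted p = 0.333). The TE call was lost when any of 4 single libraries was left out, with an adjusted p between 0.0553 and 0.121.

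BRIP1 (ENSG00000136492, chr17:61679139-61863559), the helicase that binds BRCA1, measured 4.65, 3.54 and 4.97 TPM untreated. It measured 9.22, 9.43 and 9.64 TPM with AE, 7.48, 8.65 and 7.1 with TE, 15.51, 16.52 and 15.82 with SE, and 8.32, 6.41 and 7.52 with HTyr. SE libraries lay above every other library, and all treated libraries lay above the untreated ones. The log2 fold changes were 1.76 with SE, 1.03 with AE, 0.76 with TE and 0.70 with HTyr, with adjusted p from 3.9e-08 to 0.000449.

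RAD51AP1 (ENSG00000111247, chr12:4538798-4560047), which stimulates strand invasion, measured 9.58, 12.19 and 13.9 TPM untreated, 28.43, 33.03 and 28.94 with AE, 20.41, 21.03 and 21.63 with TE, 32.96, 42.92 and 35.94 with SE, and 21.49, 20.49 and 24.42 with HTyr. No treated library overlapped the untreated ones. In the mean of the 4 treatments it rose by 1.16 ± 0.10 (log2, adjusted p = 4.93e-07), the smallest adjusted p of the BRCA group. BARD1, the partner of BRCA1, went from a mean of 4.10 TPM to 10.9 TPM with SE, and its calls with AE and TE were lost without 1 library (AE replicate 2 or, for TE, TE replicate 1 or untreated replicate 1). PALB2, the bridge between BRCA1 and BRCA2, went from 5.81 TPM to 9.84 with AE and 11.2 with SE.

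The subunits of the BCDX2 and CX3 complexes, which act in strand exchange, split into 3 that rose and 2 that were called with no treatment. XRCC3 (ENSG00000126215, chr14:103697609-103715504) measured 5.31, 7.31 and 5.97 TPM untreated, 25.93, 13.78 and 17.89 with AE, 14.36, 18.25 and 14.07 with TE, 27.07, 20.97 and 24.94 with SE, and 14.95, 12.03 and 12.48 with HTyr. Every treated library was above the untreated ones, and AE replicate 1 stood well above the other AE libraries. Its log2 fold change of 1.89 ± 0.19 with SE (adjusted p = 2.02e-06) was the largest of any member with any treatment, and it was 1.52 with AE, 1.26 with TE and 1.03 with HTyr.

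RAD51C (ENSG00000108384, chr17:58692573-58735611) was the most abundant of these subunits, with 43.59, 47.57 and 43.32 TPM untreated. It measured 72.5, 85.46 and 83.41 TPM with AE, 66.16, 67.14 and 68.15 with TE, 101.73, 112.43 and 111.85 with SE, and 68.6, 66.72 and 74.36 with HTyr. The SE libraries lay above all others. It rose by 1.27 ± 0.070 with SE (adjusted p = 6.1e-09), 0.83 with AE and 0.63 with HTyr, and with TE its 0.58 ± 0.070 (adjusted p = 3.6e-05) missed the fold threshold. XRCC2 rose with all 4 treatments, from a mean of 3.52 TPM to 10.3 with SE and 5.77 with HTyr. RAD51B and RAD51D had log2 fold changes between 0.07 and 0.47 and were not called.

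Of the strand exchange proteins and translocases, RAD54L and RAD54B, which move along duplex DNA during the search for the matching strand, rose with AE and SE. RAD54B (ENSG00000197275, chr8:94371960-94475115) measured 7.41, 6.81 and 8.56 TPM untreated, 12.94, 12.27 and 12.74 with AE, 11.29, 9.79 and 9.81 with TE, 18.33, 22.14 and 17.11 with SE, and 9.36, 7.68 and 9.72 with HTyr. AE, TE and SE lay above the untreated libraries and HTyr overlapped them. It rose by 1.28 ± 0.12 with SE (adjusted p = 6.35e-07) and 0.71 ± 0.12 with AE (adjusted p = 0.000293). RAD54L went from a mean of 10.9 TPM to 17.3 with AE and 25.0 with SE. Its call with AE (0.68 ± 0.19, adjusted p = 0.012) was lost without AE replicate 3 (0.57, adjusted p = 0.0541) and without untreated replicate 2 (0.42). Its mean of the 4 treatments went from 0.66 to 0.40 without untreated replicate 2, and lost its call.

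DMC1 (ENSG00000100206, chr22:38518948-38570204), the recombinase of meiosis, was near the lower limit of the filter. It was listed at 0, 1.07 and 1.87 TPM untreated, 0.5, 2.15 and 0.25 with AE, 0.31, 0.12 and 0.12 with TE, 2.25, 1.64 and 1.88 with SE, and 0, 1.55 and 1.05 with HTyr. The untreated, AE and HTyr libraries were spread widely and overlapped those of TE, while the SE libraries lay together above those of TE. It was not called against untreated cells.

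In the Fanconi anemia group, 8 of 11 members rose with SE, 7 with AE, 6 with HTyr and 4 with TE. FANCI (ENSG00000140525, chr15:89243945-89317261), the subunit of the clamp that is ubiquitinated together with FANCD2, measured 28.85, 27.01 and 30.26 TPM untreated. It measured 62.76, 57.72 and 61.25 TPM with AE, 44.78, 45.74 and 47.9 with TE, 72.89, 80.66 and 79.86 with SE, and 51.84, 51.09 and 56.54 with HTyr. The 5 groups did not overlap at all, in the order untreated, TE, HTyr, AE and SE. Its log2 fold change was 0.68 ± 0.064 with TE, 0.88 ± 0.064 with HTyr, 1.06 ± 0.064 with AE and 1.42 ± 0.064 with SE, with adjusted p from 1.05e-09 to 4.83e-06. FANCD2, the other subunit, went from a mean of 14.2 TPM to 22.0 with AE, 33.0 with SE and 22.8 with HTyr, and stood at 17.4 with TE, where it was not called (0.28 ± 0.13, adjusted p = 0.112).

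The machinery that adds this ubiquitin rose as well. FANCL, the catalytic subunit of the core complex, went from a mean of 10.45 TPM to between 18.1 and 25.8 TPM, and UBE2T, its ubiquitin-conjugating partner, from 46.6 to between 75.3 and 109 TPM. Both were called with all 4 treatments, as was the core subunit FANCA (23.2 to between 35.8 and 60.8 TPM). The core subunits FANCG (AE, SE and HTyr) and FANCB (AE and SE) were called with 3 and 2 treatments. The FANCB call with AE (0.66 ± 0.25, adjusted p = 0.0494) was lost when any of 11 single libraries was left out, and without AE replicate 3 the difference was 0.41 (adjusted p = 0.219). The FANCG call with HTyr (0.64 ± 0.20) was lost without HTyr replicate 1, HTyr replicate 3 or untreated replicate 2 (0.42 without the last), and its call with AE without untreated replicate 2 (0.58). FANCM, the translocase that recruits the complex, was called with SE (1.01 on the log2 scale). FANCC, FANCE and FANCF were called with none, with log2 fold changes from -0.01 to 0.49.

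Among helicases and nucleases of joint molecules, RMI2 (ENSG00000175643, chr16:11249619-11381662), a small subunit of the BLM complex, had the largest mean fold change of all members. It measured 4.67, 4.02 and 4.37 TPM untreated, 9.16, 11.75 and 14.72 with AE, 11.41, 11.24 and 10.72 with TE, 15.22, 15.32 and 18.57 with SE, and 13.27, 11.29 and 13.91 with HTyr. Every treated library lay well above the untreated ones, and SE lay above the other treatments. Its mean over the 4 treatments was 1.46 ± 0.11 on the log2 scale (adjusted p = 1.66e-07). RMI2 was also the member that HTyr raised most, by 1.45 ± 0.14 (adjusted p = 4.35e-06).

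RMI1 (ENSG00000178966, chr9:83980798-84004074), the scaffold of the same complex, measured 6.87, 7.01 and 7.32 TPM untreated, 14.29, 15.23 and 17.23 with AE, 12.89, 11.38 and 12.35 with TE, 17.67, 20.7 and 20.81 with SE, and 13.07, 11.05 and 11.94 with HTyr. SE libraries lay above the AE ones, and these above TE and HTyr, which overlapped. Its mean rise of 0.99 ± 0.074 had the smallest adjusted p of the group (1.26e-07). BLM (ENSG00000197299, chr15:90717346-90816166), the helicase itself, measured 6.27, 8.42 and 5.68 TPM untreated, 11.81, 10.85 and 12.24 with AE, 9.69, 10.75 and 8.49 with TE, 19.19, 20.15 and 17.86 with SE, and 12.36, 9.28 and 11.68 with HTyr. The lowest treated value was just above the highest untreated one, and SE stood apart from the rest. BLM rose by 1.44 ± 0.14 with SE (adjusted p = 1.12e-06).

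EME1 (ENSG00000154920, chr17:50373220-50381483), the regulatory subunit of the MUS81 nuclease, measured 9.72, 11.53 and 10.57 TPM untreated, 18.45, 18.39 and 14.99 with AE, 14.01, 13.93 and 17.21 with TE, 28.33, 25.29 and 26.93 with SE, and 19.59, 15.97 and 16.1 with HTyr. No treated library overlapped the untreated ones, and SE lay above the other treatments. It rose by 1.30 ± 0.11 with SE (adjusted p = 4.12e-07). MUS81, the catalytic subunit, was called with no treatment and lay between a mean of 19.7 TPM with SE and 25.1 with AE.

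WRN (ENSG00000165392, chr8:31033788-31176138), a helicase of the same family as BLM, went the other way. It measured 21.6, 24.37 and 21.03 TPM untreated, 23.49, 16.03 and 18.24 with AE, 16.62, 18.45 and 16.73 with TE, 21.32, 19.57 and 17.82 with SE, and 12.91, 10.04 and 14.28 with HTyr. The HTyr libraries lay below all other libraries, while AE and SE overlapped the untreated ones. With HTyr, WRN fell by 0.83 (log2, standard error 0.14, adjusted p = 0.000385), and its differences of -0.22 with AE, -0.36 with TE and -0.19 with SE were not called.

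**Figure D2:**
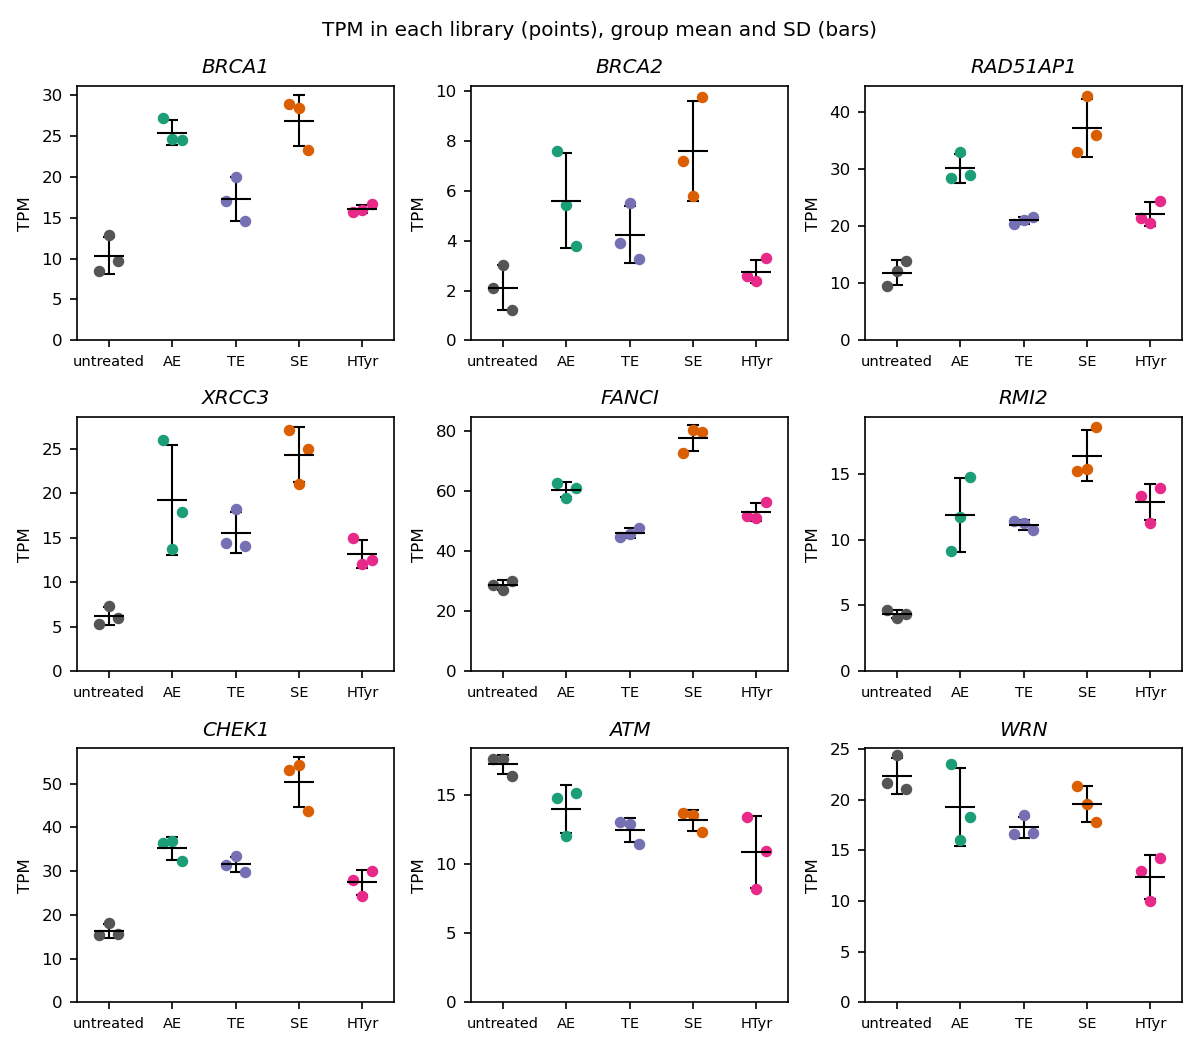
TPM (vertical axis, from 0) of 9 members in each of the 15 libraries (points), by group, with the group mean and SD as bars. BRCA1, RAD51AP1, XRCC3, FANCI, RMI2 and CHEK1 have no treated point at or below an untreated one, BRCA2 with HTyr overlaps the untreated points, ATM is lower in every treated library, and WRN is lowest with HTyr.

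Genes that sense breaks and trim their ends did not pass the fold threshold with any treatment (0 of 4 members called by limma, while at an unadjusted p under 0.05 3 were higher with SE, 2 with AE and 1 with TE, and with HTyr 1 was higher and 1 lower). From 7.46% (TE) to 17.0% (SE) of all genes tested rose, and 0 calls among 4 genes is close to what these shares give. NBN (ENSG00000104320, chr8:89924515-90003228), which recruits ATM, measured 21.82, 22.12 and 21.78 TPM untreated, 33.85, 32.29 and 32.61 with AE, 29.47, 25.89 and 26.9 with TE, 29.96, 34.25 and 29.24 with SE, and 29.87, 25.61 and 28.07 with HTyr. Every treated library lay above the untreated ones, whose SD was 0.186 TPM. Its mean difference of 0.43 ± 0.059 on the log2 scale had an adjusted p of 4.19e-05 and was under the fold threshold.

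MRE11 (ENSG00000020922, chr11:94415570-94493885), the nuclease of the complex, measured 14.41, 19.42 and 14.47 TPM untreated, 15.57, 13.75 and 12.2 with AE, 12.73, 13.49 and 14.49 with TE, 15.72, 19.12 and 17.71 with SE, and 11.5, 10.62 and 12.76 with HTyr. Only the HTyr libraries lay wholly below the untreated ones, and the difference of -0.44 ± 0.12 (adjusted p = 0.0123) was under the fold threshold. RAD50 and RBBP8 had log2 fold changes between -0.18 and 0.35.

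Checkpoint genes were divided. CHEK1 (ENSG00000149554, chr11:125625163-125676255), the kinase below ATR, measured 15.3, 18.04 and 15.6 TPM untreated, 36.47, 36.92 and 32.23 with AE, 31.38, 33.42 and 29.91 with TE, 53.11, 54.19 and 43.79 with SE, and 28.04, 24.42 and 30.03 with HTyr. SE lay above all other groups, and no treated library overlapped the untreated ones. It rose by 1.59 ± 0.10 with SE (adjusted p = 2.09e-08), 1.09 with AE, 0.93 with TE and 0.73 with HTyr (adjusted p = 8.24e-05). CHEK1 was the only checkpoint member called with all 4 treatments.

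CHEK2 (ENSG00000183765, chr22:28687743-28742422), the kinase below ATM, measured 19.34, 18.4 and 20.3 TPM untreated, 20.58, 22.9 and 26.62 with AE, 20.88, 22.23 and 21.11 with TE, 33.9, 36.55 and 32.75 with SE, and 21.2, 21.98 and 22.08 with HTyr. All treated libraries lay above the untreated ones, by little except with SE. It rose with SE by 0.81 ± 0.083 (adjusted p = 2.03e-06), and the other differences of 0.14 to 0.26 were not called. TOPBP1 and ATRIP, which activate and accompany ATR, rose with SE (0.94 and 0.63).

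ATM (ENSG00000149311, chr11:108223044-108369102), the kinase activated at breaks, was the only member lower in every treated library. It measured 17.63, 17.61 and 16.41 TPM untreated, 14.75, 12.02 and 15.18 with AE, 13.05, 12.89 and 11.46 with TE, 13.67, 13.52 and 12.31 with SE, and 13.41, 8.22 and 10.96 with HTyr. The treatments overlapped one another. ATM fell by 0.67 with HTyr (standard error 0.14, adjusted p = 0.00188), and its differences of -0.30 with AE, -0.45 with TE and -0.38 with SE were under the fold threshold. Without HTyr replicate 2 the difference was -0.49 and the call was lost.

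ATR (ENSG00000175054, chr3:142449007-142578733), the kinase activated by single-stranded DNA, measured 13.67, 11.54 and 11.93 TPM untreated, 16.21, 14.94 and 14.46 with AE, 12.64, 14.31 and 13.1 with TE, 18.36, 15.86 and 13.97 with SE, and 12.33, 9.29 and 12.18 with HTyr. Only AE and SE lay wholly above the untreated libraries, and no difference passed the fold threshold (-0.14 to 0.36). TP53BP1 (ENSG00000067369, chr15:43403061-43510728), which shields ends from trimming, measured 28.89, 24.99 and 23.8 TPM untreated, 28.46, 20.54 and 25.75 with AE, 23.8, 24.04 and 24.71 with TE, 26.73, 27.85 and 24.18 with SE, and 23.78, 16.79 and 23.24 with HTyr. Its groups overlapped, and it was not called (-0.29 to 0.02). MDC1, the scaffold at damaged chromatin, measured 25.4, 21.24 and 58.14 TPM with AE against 16.44, 17.79 and 20.25 untreated. AE replicate 3 stood far above the other libraries. The call with AE (0.79, adjusted p = 0.0434) was lost when any of 11 single libraries was left out, and without AE replicate 3 the difference was 0.35 (adjusted p = 0.177).

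PARP1 (ENSG00000143799, chr1:226360210-226408154), which marks strand breaks with poly(ADP-ribose), measured 71.25, 79.53 and 77.89 TPM untreated, 104.49, 100.67 and 114.65 with AE, 98.72, 101.45 and 95.84 with TE, 138.87, 143.72 and 140.27 with SE, and 99.5, 99.57 and 106.5 with HTyr. All treated libraries lay above the untreated ones, and SE above the rest. It rose with SE (0.88 ± 0.059, adjusted p = 3.24e-08), and the differences of 0.37 to 0.48 with the other treatments were under the fold threshold. PARP2 was called with none.

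Among end joining members, XRCC5 and XRCC6 were more abundant than PARP1. XRCC5 (ENSG00000079246, chr2:216107464-216206303), the Ku80 subunit that caps broken ends, measured 183.18, 185.33 and 179.81 TPM untreated, 235.68, 240.25 and 240.87 with AE, 224.74, 214.44 and 213.69 with TE, 324.51, 333.27 and 313.52 with SE, and 207.41, 217.63 and 233.1 with HTyr. Groups separated as for PARP1, and it rose with SE (0.82 ± 0.048, adjusted p = 9.21e-09). XRCC6, the Ku70 subunit, went from a mean of 281 TPM to 442 with AE and 681 with SE, which were calls (0.66 and 1.28), and to 384 with TE and 396 with HTyr, which were not. PRKDC, the kinase that Ku recruits, rose with SE (0.74), and LIG4, the ligase of the pathway, was called with no treatment.

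**Figure D3:**
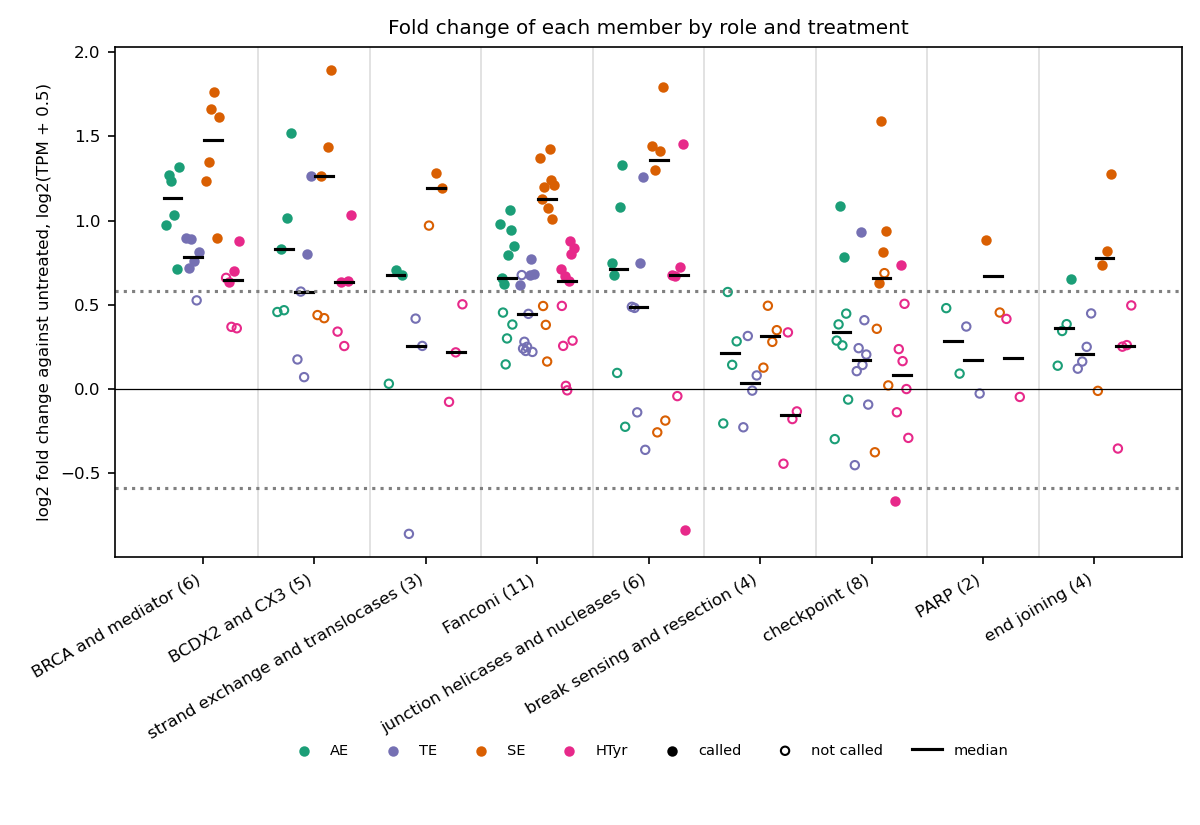
Log2 fold change against untreated cells of every member (points), on log2(TPM + 0.5), by role and treatment, with called members filled, others open, medians as black bars and the fold threshold dotted. SE medians are the highest in every role, at 1.48 for BRCA and mediator genes and 0.32 for break sensing and resection, and both filled points below 0 are HTyr points (WRN and ATM).

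The treatments were then compared with one another. SE stood apart from TE, where 21 members were higher and 0 lower (0 at an unadjusted p under 0.05), against 4.70% of all genes tested that were higher, and the median member difference was 0.53. BRIP1 (1.00 ± 0.12, adjusted p = 3.97e-05), BLM (0.95 ± 0.14, adjusted p = 0.000195) and FANCD2 (0.92 ± 0.13, adjusted p = 0.000152) were among them. DMC1 had the largest difference, 1.83 ± 0.62 (adjusted p = 0.042), and lost its call when any of 7 single libraries was left out. In all, 6 of the 21 calls were lost without at least 1 library (DMC1, BRCA1, FANCG, FANCM, XRCC2 and XRCC3). With trends on GC content and transcript length removed, 13 members were called.

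SE was higher than HTyr in 19 members and lower in 0 (1 at an unadjusted p under 0.05), against 4.97% of all genes tested that were higher. BRCA2 differed most (1.29 ± 0.29, adjusted p = 0.00434), then RAD54B (1.06 ± 0.12, adjusted p = 2.61e-05) and BRIP1 (1.06 ± 0.12, adjusted p = 3.44e-05). CHEK1 (0.86), XRCC3 (0.86) and TOPBP1 (0.94) were also called. Without at least 1 library, 4 of the 19 calls were lost (EME1, FANCM, RAD54L and WRN). The median of all genes was itself 0.13 higher with SE than with HTyr, and when libraries were scaled by the median ratio 10 members were called, with 9 after quantile normalization and 9 after removal of the GC and length trend. BRCA2, RAD54B and BRIP1 were among the 10, at 1.17, 0.93 and 0.93. Among all genes, 741 were higher and 355 lower in SE as deposited, and 323 and 561 after that scaling.

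**Figure D4:**
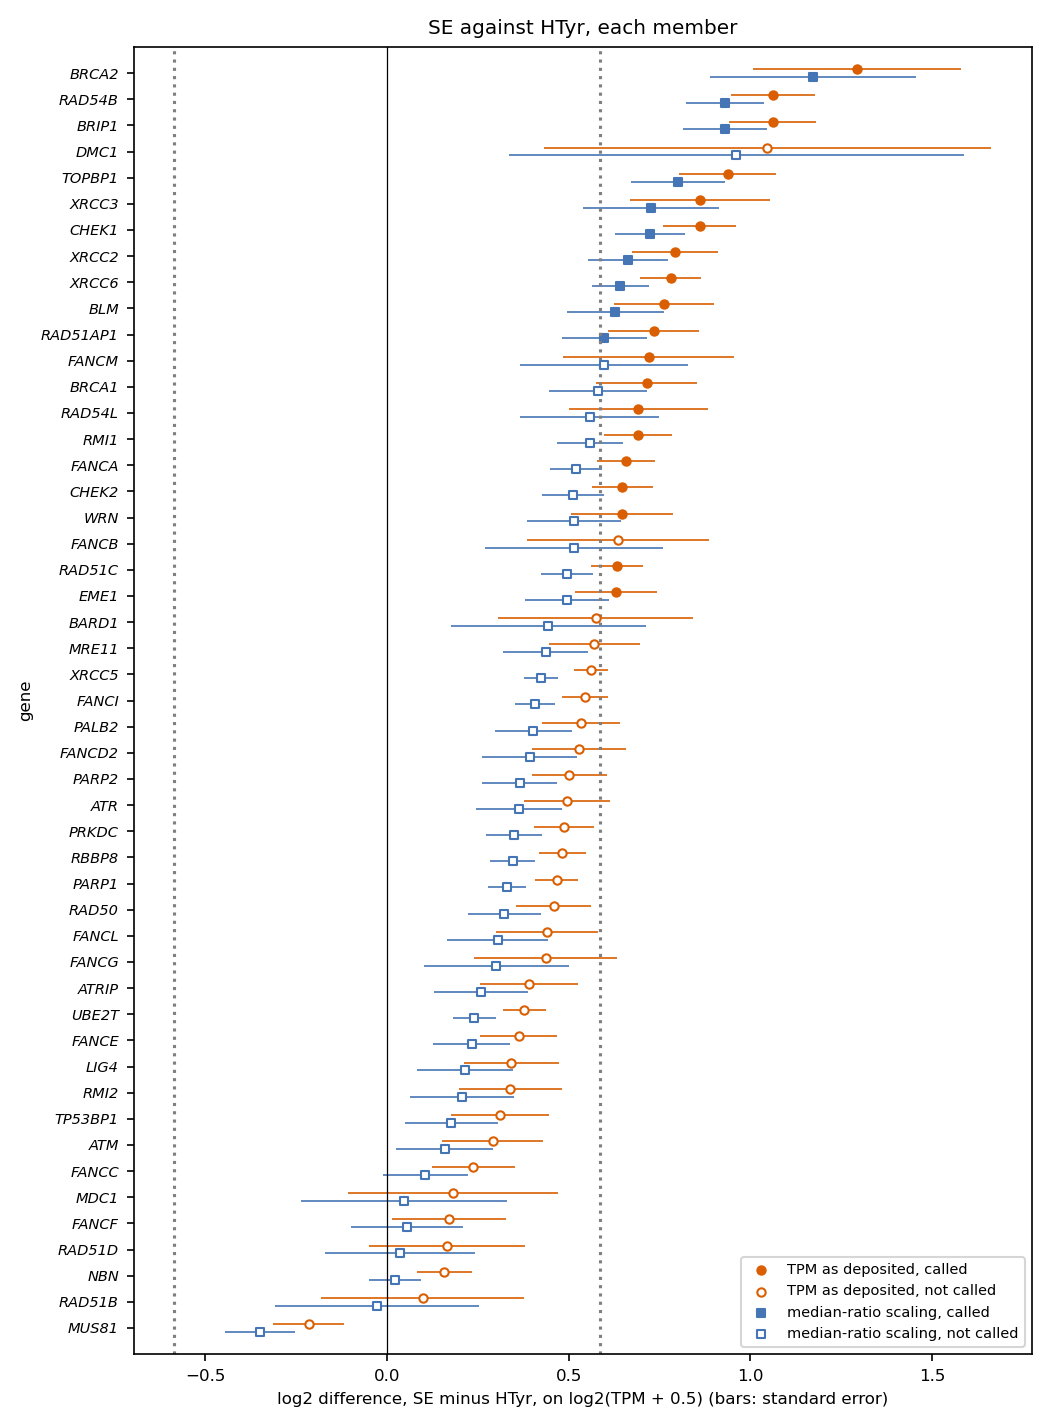
Difference between SE and HTyr of each member on log2(TPM + 0.5), with bars for the standard error, from TPM as deposited (circles) and after median-ratio scaling (squares), filled where called, with the fold threshold dotted. Of 49 members 48 lie above 0 as deposited, 19 of them called, and 10 are called after scaling.

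AE and SE were closer. SE was higher in 4 members (BRIP1, BLM, EME1 and XRCC6) and lower in 0 (1 at an unadjusted p under 0.05), against 1.94% of all genes tested that were higher. The differences were 0.73 ± 0.12 for BRIP1 (adjusted p = 0.00089), 0.69 ± 0.14 for BLM (adjusted p = 0.00355), 0.63 ± 0.11 for EME1 (adjusted p = 0.00173) and 0.62 ± 0.084 for XRCC6 (adjusted p = 0.000179). The count was 7 without AE replicate 1 and 8 without SE replicate 3. The EME1 call was lost without AE replicate 3 (0.53) and the XRCC6 call without SE replicate 1 (0.58).

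AE was higher than HTyr in 2 members, BRCA1 (0.64 ± 0.14, adjusted p = 0.0161) and WRN (0.61 ± 0.14, adjusted p = 0.0199), and lower in 0 (0 at an unadjusted p under 0.05), against 0.899% of all genes that were higher. All genes had a median of 0.12 in this comparison, and neither call remained after median-ratio scaling, after quantile normalization, or without AE replicate 1 or HTyr replicate 2. Between TE and HTyr, limma called 0 members, against 0.705% of all genes in either direction, and 3 were higher and 3 lower at an unadjusted p under 0.05. Between AE and TE it also called 0, against 0.0873% of all genes called. At an unadjusted p under 0.05, 17 members were higher and 0 lower, which is not to be set against that share. The share of all genes at an unadjusted p is not given, for these or for the other such counts. A difference that was not called is not shown to be absent with 3 libraries per group.

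Other genes of the same pathways, outside the 49, were read from lists by role. Of 31 further genes of homologous recombination, 18 rose with SE, 9 with AE, 8 with HTyr and 6 with TE, and 0 fell. Over all genes tested 17.0% rose with SE, 10.7% with AE, 7.80% with HTyr and 7.46% with TE, and the lists that follow are to be read against these shares as well. In the mean of the 4 treatments PSMC3IP, a partner of DMC1, rose by 1.65 ± 0.11 (log2, adjusted p = 6.14e-08), EXO1, the nuclease of long-range resection, by 1.47 ± 0.12, and RPA3, a subunit of the protein that coats single-stranded DNA, by 1.09 ± 0.10.

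Of 14 further Fanconi pathway genes, 5 rose with each treatment, and 2 fell with SE and 1 with HTyr. The falls are near the 11.0% and 8.45% of all genes that fell with SE and HTyr. USP1, which removes ubiquitin from FANCD2 and FANCI, rose by 0.85 ± 0.052 in the mean of the 4 treatments, UHRF1 by 0.97 ± 0.066 and CENPX by 0.75 ± 0.067. FAAP20 and ERCC1 fell with SE by 0.72 and 0.64, and REV3L, the catalytic subunit of a translesion polymerase, fell with HTyr by 0.61.

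Of 16 further checkpoint genes, 9 rose with SE, 3 with AE, 3 with TE and 2 with HTyr, and 0 fell. The counts with AE and HTyr are close to what the shares of all genes give in a list of 16. CLSPN, the adaptor through which ATR reaches CHEK1, rose by 1.62 ± 0.14 in the mean of the 4 treatments, the histone H2AX by 1.49 ± 0.10, and TIMELESS, a fork protection factor, by 0.78 ± 0.056. Of 11 further genes of end joining and PARP signalling, limma called 0 with any treatment, whereas 5 of them were higher and 1 was lower in that mean at an unadjusted p under 0.05. XRCC4, the partner of LIG4, stood at -0.28 ± 0.051 in that mean, XRCC1 at 0.40 ± 0.069 and PAXX at 0.31 ± 0.080. With SE, XRCC1 was at 0.584 (limma, adjusted p = 7.41e-05), just under the fold threshold.

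Some members share exons with other expressed genes. On the same strand, CHEK1 overlaps STT3A, ATRIP TREX1, RAD54B FSBP, BRCA1 a long noncoding RNA and RAD50 an unnamed protein-coding gene. XRCC3, FANCI, FANCA, EME1, NBN and MDC1 overlap KLC1, POLG, ZNF276, LRRC59, OSGIN2 and TUBB on the opposite strand. CHEK2, FANCL, TP53BP1, RAD54L, ATM and FANCC likewise overlap HSCB, VRK2, TUBGCP4, LRRC41, C11orf65 and AOPEP. MUS81 overlaps EFEMP2 and CFL1 on the opposite strand, and FANCL and PARP2 each a long noncoding RNA. CFL1 reached 1020.11 TPM, while the lowest MUS81 value was 16.68 TPM. No source used here gives the strand setting of the counting, so reads of these pairs may be divided between them. Annotated pseudogene copies of members reached at most 0.73 TPM.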

How the data were processed

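RNA from HCT116 cells in 5 groups of 3 libraries was sequenced by the authors after poly(A) capture with a stranded kit. The authors filtered and trimmed the reads with Scythe and Sickle, aligned them to GRCh38 with STAR and quantified Ensembl release 104 genes with RSEM (versions not given in the sources used here; STAR, RSEM and GRCh38 also stand in the submitters' processing notes). The deposited values are TPM, given to 2 decimals and not scaled between libraries. Their own test used DESeq2 on estimated counts that are not analysed here, and without counts neither a count model nor a counting error could be computed.

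Libraries were assigned to groups from their labels, and each column was checked against the first 1539 genes of the study's own table, where all 1539 lay within 0.005 TPM of the same library. Symbols and coordinates came from GENCODE 44, and promoters from RefSeq (GRCh38.p14). The 14899 genes that reached 1 TPM in 3 or more libraries were fitted as log2(TPM + 0.5) with 5 group means in limma 3.58.1 (R 4.3.3, trended prior variance, 10 residual degrees of freedom). Adjusted p-values are Benjamini-Hochberg values over these genes, and the test was checked on simulated data. A gene was called at an adjusted p under 0.05 and a fold change over 1.5, the thresholds of the study. On this scale the change of a gene near 1 TPM is understated. Tables and figures were made with Python 3.11.15, pandas 2.3.3, numpy 2.4.6 and matplotlib 3.10.9.

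The members and the lists were chosen with earlier results of these data known. Named in full are BRCA1, BRCA2, ATM, ATR, CHEK1 and CHEK2, for each of 9 roles the member with the lowest adjusted p over the mean of the 4 treatments, the 4 largest and 4 lowest fold changes of that mean, members called lower, and up to 3 with the largest difference in each comparison between treatments. From each list of other genes, the 3 with the smallest adjusted p and up to 3 called against the majority are named. A gene of these lists is not reported here and was left out of their counts. MDC1 and XRCC6 and the members given by their means were chosen after their values were seen. Alternatives were pseudocounts of 0.1 and 1, no filter, a mean filter of 5 TPM, no variance trend, scaling by the median ratio or by quantiles, each library left out, a fit of only the groups compared, a replicate block and, added after seeing the data, removal of the GC and length trend.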

Additional observations from a re-analysis of the deposited data

How the results depend on the processing

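Against untreated cells and in the mean of the 4 treatments, every alternative tried kept each count of called members within 1.5 times the value reported. Over all comparisons this held for 261 of 274 alternatives. For the mean of the 4 treatments in 23 genes named in full, 539 of 550 alternatives kept direction and call. Among all members, 4 of 25 calls of that mean were lost without at least 1 library (MDC1, FANCG, PALB2 and RAD54L). Between AE and HTyr, 0 members were called after median-ratio scaling, quantile normalization or removal of the GC and length trend, 1 when only the groups compared were fitted, and 0 to 3 without 1 library. Between SE and HTyr, 10 were called after median-ratio scaling, 9 after quantile normalization, 9 without the GC and length trend, and 15 to 21 without 1 library. Between SE and TE, 13 were called without that trend and 17 to 22 without 1 library. Leaving out 1 library gave 4 to 8 members between SE and AE and 0 to 1 between TE and HTyr. It gave 22 to 25 with AE, 12 to 16 with TE, 30 to 32 with SE and 17 to 20 with HTyr, and calls lost without at least 1 library numbered 6 of 25, 3 of 14, 1 of 31 and 8 of 19. The mean of the 4 treatments of RAD54B was 0.51 without the GC and length trend, where its call was lost, and that of TP53BP1 turned to 0.0234. DMC1 was at -0.0083 after median-ratio scaling, -0.0089 after quantile normalization, -0.13 without the GC and length trend, and between -0.63 (without untreated replicate 1) and 0.49 (without untreated replicate 3) without 1 library, among them -0.007 without SE replicate 1, -0.12 without AE replicate 2, -0.02 without TE replicate 1, and -0.08 and -0.03 without HTyr replicates 2 and 3. The causes were not tested. A mean filter of 5 TPM left 44 members tested, without BRCA2 and DMC1, and fitting only the groups compared cannot differ for the mean of the 4 treatments.

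The replicate numbers shared by the groups did not pair the libraries. Of 30 pairs with the same number 3 had a correlation of deviations over 0.1 (range -0.21 to 0.26), and 4 of 15 libraries were nearest to their own number. With a replicate block 24 members were called with AE against 25, and the counts of every other comparison were the same. Rounded TPM with no depth limit what can be said of members near 1 TPM, above all DMC1.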
